A study of Mus musculus with 8 samples.

Results

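Oligodendrocyte progenitors (OLP) that received a control siRNA were compared with control cells that had been driven toward immature oligodendrocytes (iOL), over the 50 genes that responded to Klf6 silencing at both stages. Each gene was a member if its symbol stood both in the table of genes called after Klf6 silencing in OLP and in the corresponding table for iOL. These were 50 of 337 symbols found in either table (275 in OLP and 112 in iOL). All 50 carried the same transcript locus identifier in both tables.

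All cells were primary OLP of early postnatal C57BL/6 mice. They were isolated from cerebral cortex after depletion of microglia, by panning on antibody to the receptor Pdgfrα. Plating was in medium with the growth factors bFGF, at 20 ng/ml, and PDGF-AA, at 10 ng/ml. The OLP NT group held 2 cultures nucleofected with a non-targeting siRNA (NT) and given no thyroid hormone. The iOL NT group held 2 cultures with the same NT siRNA that then spent 18 h in 40 ng/ml of the thyroid hormone triiodothyronine (T3). The OLP siKlf6 and iOL siKlf6 groups, again 2 cultures each, received siRNA against the transcription factor Klf6 and serve here as a second view of the same stage difference. Klf6 itself, listed for OLP alone, had 38.6 FPKM in OLP NT and 20.0 FPKM in OLP siKlf6. According to the methods, cells were collected either once attached or 18 h later with T3 or vehicle, and T3 was generally given in a differentiation medium that replaced the growth factor medium. Whether the OLP libraries came from attached or from vehicle-treated cells is not given in the sources used here. T3, time in culture and medium therefore cannot be told apart.

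OLP divide and migrate, then leave the cell cycle and become oligodendrocytes, the cells that wrap axons of the central nervous system in myelin. T3 enters the cell and binds nuclear receptors that sit on DNA, often at paired copies of a short half-site, and it is a classical trigger of oligodendrocyte differentiation. Klf6 belongs to the Klf/Sp family of zinc finger proteins, which bind GC-rich boxes in promoters.

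Expression was given as FPKM (fragment counts corrected for the length of the transcript and the size of the library), with a single value for each condition that pools both cultures. No spread between cultures could be computed, so no test between stages was made and every difference below is a description. The tables of the 2 stages were also normalized separately, so each level set beside one of the other stage carries an unknown common offset. The stage difference is log2((iOL + 1)/(OLP + 1)), with 1 FPKM added to both values, and negative values mean a lower level in iOL. A difference of 1 or more on this scale was used to name genes as clearly apart. Since the silencing calls chose the genes, and those calls used the NT values, the 50 do not stand for the transcriptome.

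The identity of the cells could not be checked on these genes. Of the stage markers fixed for the purpose, 0 of 5 for OLP, 1 of 8 for immature oligodendrocytes (Tns3) and 1 of 7 for myelin (Cldn11) were among the members. At a single stage, Sox9 stood at 53.4 FPKM in OLP NT, and Sox10 and Plxnb3 at 42.1 and 8.33 FPKM in iOL NT. None of 6 genes known to respond to T3 was listed. Of markers of other cells, OLP alone listed 1 of 7 for astrocytes (Gfap, 3.06 FPKM in NT) and 2 of 6 for microglia (Cd14 and Irf8, 1.91 and 1.81 FPKM). Of 5 neuronal markers, Tubb3 was listed for OLP alone (22.0 FPKM in NT). Of 3 endothelial markers, Cd93 was listed for iOL alone (4.15 FPKM in NT). A gene was listed only if called after silencing, so a marker that is not listed may still be expressed. Only the neuronal gene Nefl had a value at both stages, 4.59 FPKM in OLP NT and 3.85 FPKM in iOL NT. Whether other cells had a part in the differences was not tested, and in a culture fewer cells of a type and less RNA per cell cannot be told apart.

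On this scale most of the 50 genes stood at similar levels in both control groups, and those that differed by at least 1 were lower in iOL. The stage difference was under 0.25 in either direction for 27 genes. These include Scn7a (0.169 and 0.054 FPKM in OLP NT and iOL NT) and Mylk (0.371 and 0.176 FPKM), whose differences the added 1 FPKM shrinks. With none added, Scn7a was at -1.63 and Mylk at -1.08. Negative differences were found for 31 genes (62%) and positive ones for 19 (38%), with a median of -0.05 and a range from -1.66 to 0.90. Centred on that median, 50% were positive by construction. A level lower by at least 1 was found for 6 genes, Arc, Zcchc12, Sv2c, Fbln2, S100a10 and Nrgn, which is 12.0% of the 50. A level higher by at least 1 was found for 0 genes (0%). The members are all the genes that have a value at both stages, so no wider background exists against which to read these shares. The genes that came nearest to the limit without passing it were Tagln2 at -0.87 on the lower side and Ndrg2 and Dbx2 at 0.90 on the higher side. When the differences were centred on the median of the 50 genes, S100a10 and Nrgn, both at -0.98, no longer passed the limit and 4 genes remained.

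**Figure D1:**
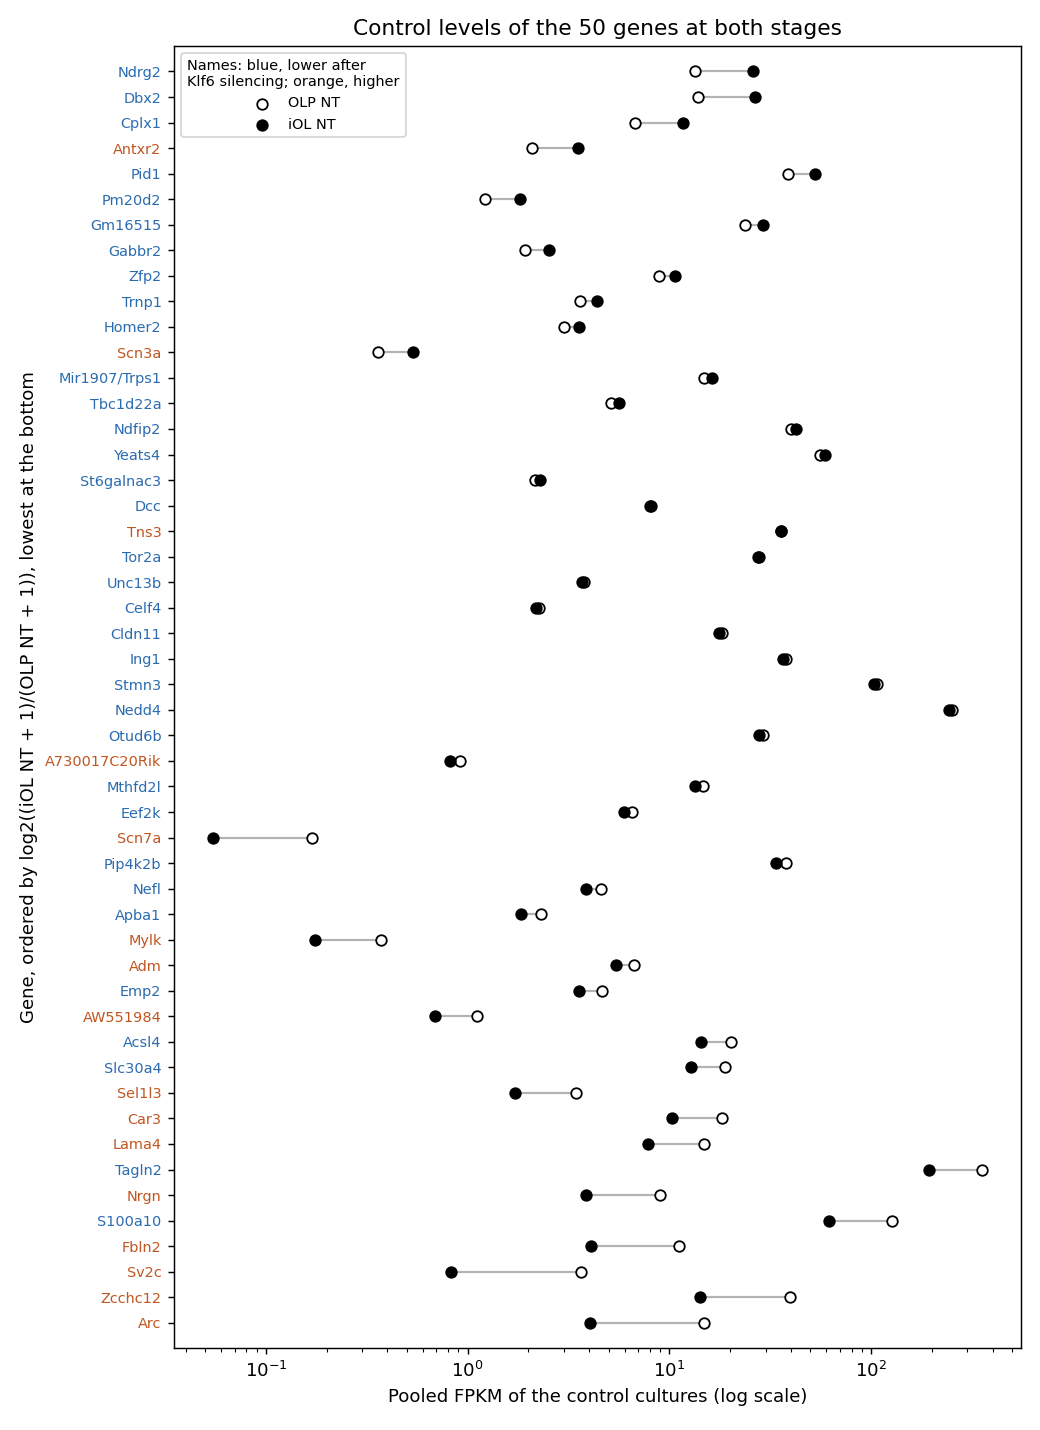
Control levels of the 50 genes. Each row is a gene, with its pooled FPKM in OLP NT (open circle) and iOL NT (filled circle) on a log axis, ordered by the stage difference; names are blue for genes lower and orange for genes higher after Klf6 silencing. The circles nearly coincide in the middle rows, and at the bottom iOL NT lies to the left of OLP NT, mostly for orange names.

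The order of the levels was largely kept. Across the 50 genes, log2(FPKM + 1) in OLP NT and iOL NT had a Pearson r of 0.956 (Spearman rho 0.948), a description over genes that are not independent and whose levels span from 0.169 to 354 FPKM in OLP NT. The highest levels in OLP NT belonged to Tagln2, an actin-binding protein of the calponin family, at 354 FPKM, the ubiquitin ligase Nedd4 at 252 FPKM and S100a10, the partner of annexin A2 at the cell membrane, at 127 FPKM. In iOL NT Nedd4 came first at 242 FPKM, Tagln2 second at 194 FPKM, and the microtubule-destabilizing protein Stmn3 followed at 103 FPKM, with S100a10 at 61.6 FPKM. Levels were under 1 FPKM at one or both stages for 6 genes, among them the sodium channel genes Scn3a and Scn7a.

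The promoters of Zcchc12, Fbln2, Nrgn and Sv2c, 4 of the 6 genes at least 1 lower in iOL NT beside Arc and S100a10, are shown together with that of Dbx2, one of the 2 genes with the highest stage difference. Ndrg2, the other of these 2, had 3 windows and is not shown. Each line holds the 250 bases before the transcription start from RefSeq (GRCm38.p6, a later build than the one used for the expression values), 5′ to 3′ on the gene's own strand. Capitals mark the GC box GGGCGG or its reverse complement; the nuclear receptor half-site AGGTCA, searched on both strands, was in none of the 5. The lines are Zcchc12 at chrX:36195654-36195903 (plus strand), Fbln2 at chr6:91212514-91212763 (plus), Nrgn at chr9:37552746-37552995 (minus), Sv2c at chr13:96132578-96132827 (minus) and Dbx2 at chr15:95654772-95655021 (minus).
Zcchc12: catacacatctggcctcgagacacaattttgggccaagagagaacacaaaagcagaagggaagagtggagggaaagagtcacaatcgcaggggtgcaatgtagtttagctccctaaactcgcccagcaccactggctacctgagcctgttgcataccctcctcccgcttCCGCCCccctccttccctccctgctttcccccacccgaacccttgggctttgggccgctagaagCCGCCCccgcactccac
Fbln2: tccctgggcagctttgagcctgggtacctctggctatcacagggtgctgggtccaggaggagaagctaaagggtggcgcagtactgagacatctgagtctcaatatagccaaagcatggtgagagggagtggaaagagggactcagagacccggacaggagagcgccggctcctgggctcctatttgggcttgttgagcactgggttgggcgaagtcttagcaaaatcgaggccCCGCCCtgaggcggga
Nrgn: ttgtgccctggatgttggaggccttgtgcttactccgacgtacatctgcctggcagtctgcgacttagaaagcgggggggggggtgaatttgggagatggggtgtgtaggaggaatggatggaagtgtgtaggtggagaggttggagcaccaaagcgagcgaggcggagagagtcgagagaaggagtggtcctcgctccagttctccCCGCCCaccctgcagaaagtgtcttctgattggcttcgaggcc
Sv2c: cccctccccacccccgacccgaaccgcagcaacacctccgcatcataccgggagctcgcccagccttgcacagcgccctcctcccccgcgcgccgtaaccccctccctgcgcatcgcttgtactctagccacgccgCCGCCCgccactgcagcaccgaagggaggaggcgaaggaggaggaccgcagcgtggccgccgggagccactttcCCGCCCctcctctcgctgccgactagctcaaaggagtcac
Dbx2: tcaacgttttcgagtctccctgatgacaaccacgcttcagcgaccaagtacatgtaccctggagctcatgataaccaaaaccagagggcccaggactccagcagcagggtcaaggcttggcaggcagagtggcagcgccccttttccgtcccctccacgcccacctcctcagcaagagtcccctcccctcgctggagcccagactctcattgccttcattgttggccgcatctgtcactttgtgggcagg

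Zcchc12 and Sv2c held 2 GC boxes each, Fbln2 and Nrgn 1 each and Dbx2 0. Promoters were found for 36 of the 50 members, 49 windows in all. A GC box was in 32 of these windows (65.3%), against 42.6% of 21263 windows of protein-coding genes. The protein-coding windows were not limited to genes expressed in these cells, and some members, such as Ing1, gave several windows. The difference between these shares was therefore not read as a trait of the members. Among the members the share was 64.9% for genes lower and 66.7% for genes higher after silencing. The half-site AGGTCA was in 3 of the 49 windows (6.12%), of Ndrg2, Tbc1d22a and Yeats4, against 12.8% of the protein-coding windows. A pair of half-sites 4 bases apart on the same strand was in 0 of the 49 windows. It was also in 0 of the 21263 protein-coding windows, so its absence says nothing particular about the members. These are letter matches, not binding sites, and RefSeq windows of one gene can overlap.

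Among the 6 genes that stood at least 1 lower in iOL NT, Arc and Nrgn are known for their roles at synapses of neurons. Arc, an activity-induced protein that regulates receptor traffic, had 14.9 FPKM in OLP NT and 4.03 FPKM in iOL NT, and 24.2 and 7.11 FPKM in the silenced OLP and iOL cultures. Its control level was 3.69-fold higher in OLP, a stage difference of -1.66, the lowest of the 50. Arc lies on chromosome 15 at 74499513 to 74503000 on the minus strand (NCBIM37, the assembly also called mm9, as for all gene positions here). Nrgn, neurogranin, a calmodulin-binding protein, had 8.96 FPKM in OLP NT and 3.87 FPKM in iOL NT (-1.03), and 29.7 and 8.97 FPKM in the silenced cultures. It lies on chromosome 9 at 37352078 to 37360330 (minus strand). For both genes each iOL value was below the OLP value with the same siRNA.

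Sv2c encodes a glycoprotein of synaptic vesicles and stood in none of the fixed lists. It had 3.66 FPKM in OLP NT and 0.824 FPKM in iOL NT, a stage difference of -1.35, with 7.64 and 2.45 FPKM in the silenced cultures. Its level in iOL NT was under 1 FPKM, which makes the 4.44-fold ratio of the control values uncertain. Sv2c lies on chromosome 13 at 96729398 to 96902532 (minus strand).

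Zcchc12, a zinc finger co-regulator of transcription, had 39.8 FPKM in OLP NT and 14.2 FPKM in iOL NT (2.81-fold, -1.43). In the silenced cultures it had 89.0 and 36.1 FPKM. In iOL NT it had the highest level of the 6 genes after S100a10. It lies on chromosome X at 33735899 to 33739153 (plus strand).

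Fbln2, fibulin 2, a glycoprotein of the extracellular matrix, had 11.1 FPKM in OLP NT and 4.07 FPKM in iOL NT (2.74-fold, -1.26), with 20.6 and 8.45 FPKM in the silenced cultures. It lies on chromosome 6 at 91162449 to 91222534 (plus strand). S100a10 had 127 FPKM in OLP NT and 61.6 FPKM in iOL NT (2.07-fold, -1.03), with 56.3 and 27.7 FPKM in the silenced cultures. It lies on chromosome 3 at 93359002 to 93368565 (plus strand). S100a10 was the only one of the 6 that silencing lowered; the other 5 were higher in siKlf6 than in NT at both stages.

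**Figure D2:**
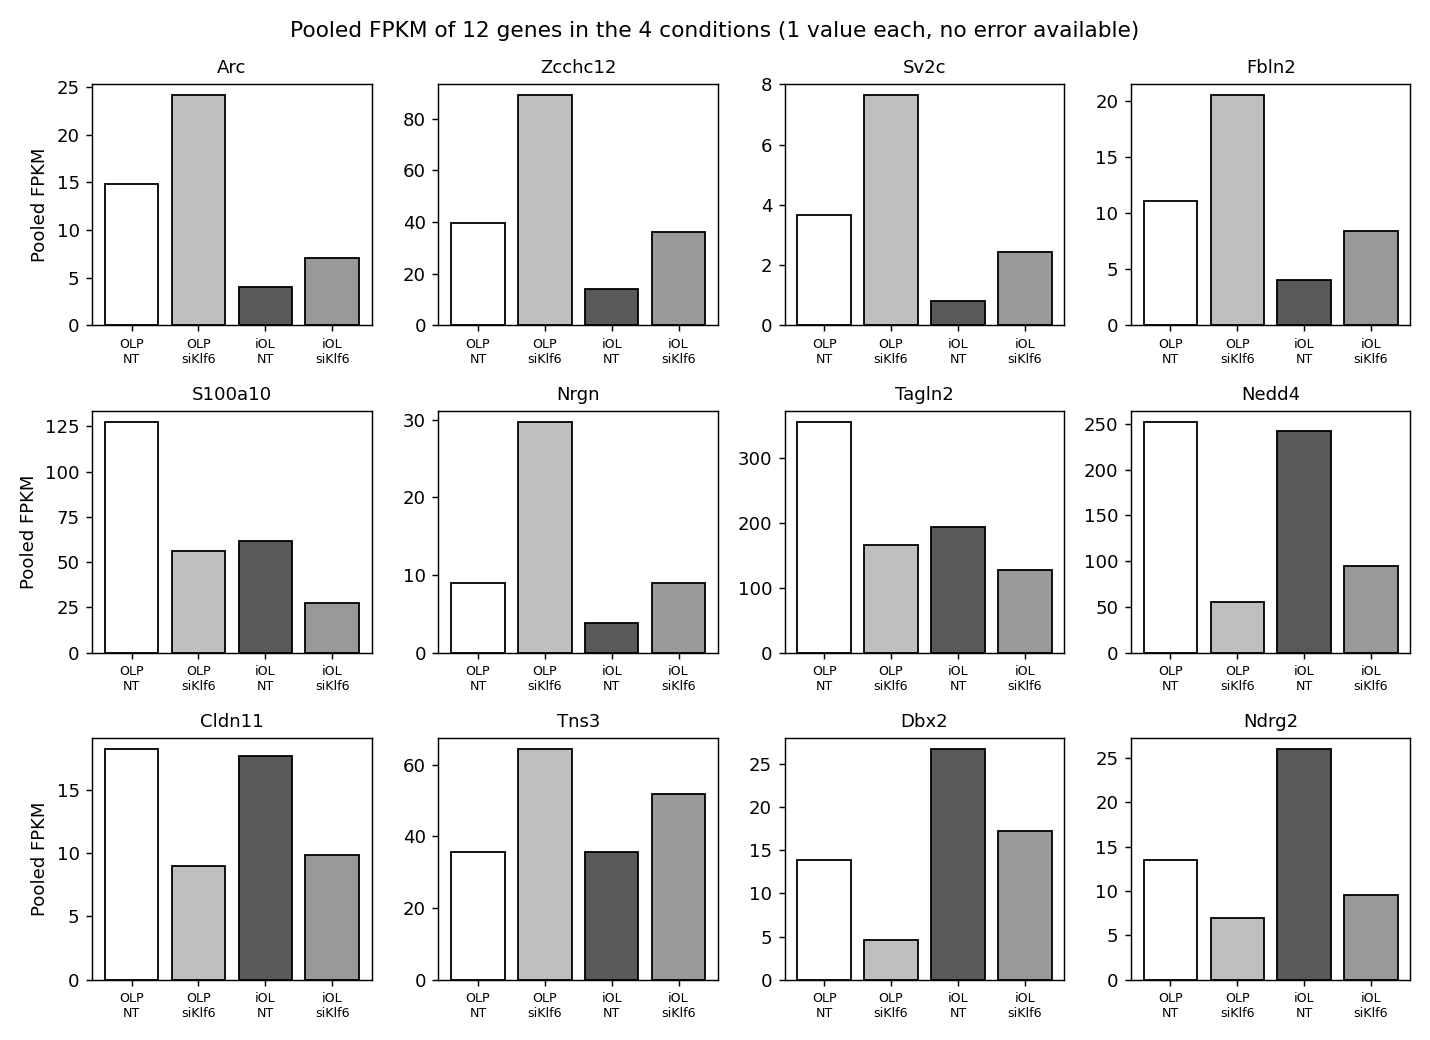
Pooled FPKM of 12 genes in OLP NT, OLP siKlf6, iOL NT and iOL siKlf6. Bars are the authors' single value for each condition, on linear axes that start at 0 and differ between panels. Arc, Zcchc12, Sv2c, Fbln2 and Nrgn have taller bars for silenced than for control cells at each stage and shorter bars in iOL than in OLP. Nedd4, Cldn11 and Tns3 have control bars of nearly equal height at both stages.

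The stage difference went with the direction of the response to silencing. Among the 16 genes that were higher in siKlf6, 13 were lower in iOL NT than in OLP NT, with a median stage difference of -0.52 and a range from -1.66 to 0.56. Among the 34 genes that were lower in siKlf6, 18 were lower and 16 higher in iOL NT, with a median of -0.02 and a range from -1.03 to 0.90. In 22 of these 34 genes the control levels differed by less than 0.25, as did 5 of the 16. The NT values enter both the silencing calls and the stage difference, so these counts are not independent of the choice of genes, and the difference between the 2 groups was not tested. Centred on the median of the 50 genes, the medians were -0.47 and 0.034. The median of the 16 genes also depended on how low values were treated, at -0.81 with 0.1 FPKM added in place of 1 FPKM, -0.97 with none added and -0.81 over genes with at least 1 FPKM in both control groups.

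Of 13 genes for matrix, adhesion and secreted proteins, 5 were members. In iOL NT 4 of these were lower and 1 was higher, beside 31 of 50 (62%) lower over all members, and their median stage difference was -0.31. Besides Fbln2, the basement membrane chain Lama4 had 14.8 FPKM in OLP NT and 7.80 FPKM in iOL NT (-0.84). The membrane protein Emp2 (-0.31) and the peptide hormone Adm (-0.27) were closer to 0. Antxr2, a receptor that binds matrix collagen, was the exception, with 2.08 FPKM in OLP NT and 3.54 FPKM in iOL NT (0.56).

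Of 11 genes for enzymes and transporters, 7 were members. All 7 had a negative stage difference, beside 31 of 50 (62%) over all members, and ranged from -0.77 to -0.01 with a median of -0.16. None differed by 1 or more, and 4 of them lay near the median of all 50 genes (-0.05). Carbonic anhydrase 3 (Car3) had 18.3 FPKM in OLP NT and 10.3 FPKM in iOL NT (-0.77). Sel1l3, in the list although not established as an enzyme or transporter, had 3.46 and 1.72 FPKM (-0.71). The zinc transporter Slc30a4 had 18.9 and 12.8 FPKM (-0.52). The phosphoinositide kinase Pip4k2b, the elongation factor 2 kinase Eef2k, the folate enzyme Mthfd2l and Tor2a lay between -0.16 and -0.01. With the differences centred on the median of the 50 genes, Tor2a changed side. The list did not hold every enzyme among the members. Among those outside it, Acsl4 (-0.48) and Mylk (-0.22) were lower in iOL NT, and St6galnac3 (0.05) and Pm20d2 (0.34) were higher. The count of 7 of 7 therefore describes this list and not enzymes in general.

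The list of calcium, actin and stress genes had 4 members of 7, with 2 on each side of 0. Its calcium- and actin-related members S100a10 and Tagln2, which had 354 FPKM in OLP NT and 194 FPKM in iOL NT (-0.87), were lower. Ndrg2, a differentiation-related protein of the N-Myc downstream-regulated family, had 13.5 FPKM in OLP NT and 25.9 FPKM in iOL NT (0.90), one of the 2 largest positive differences. It lies on chromosome 14 at 52524946 to 52533163 (minus strand). Pid1, an adaptor with a phosphotyrosine-binding domain, had 38.7 and 52.6 FPKM (0.44). All 4 were lower in siKlf6 at both stages.

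Genes of transcriptional control held both a low and a high extreme. Beside Zcchc12, the homeobox factor Dbx2 had 13.8 FPKM in OLP NT and 26.6 FPKM in iOL NT (0.90), and 4.57 and 17.2 FPKM in the silenced cultures. It lies on chromosome 15 at 95453994 to 95486391 (minus strand). Zfp2 was at 0.24, and Ing1, a reader of histone methylation, at -0.05.

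Of 8 synaptic and neuronal members, 5 were lower and 3 higher in iOL NT, with a median of -0.04. Cplx1, complexin 1, which clamps vesicle fusion, had 6.75 FPKM in OLP NT and 11.6 FPKM in iOL NT (0.70), opposite in sign to Arc and Nrgn. The release factor Unc13b (-0.03), the netrin receptor Dcc (0.01), Stmn3 (-0.05), the scaffold Homer2 (0.18) and Nefl (-0.20) stood near 0. The list did not hold every member with a neuronal role. Outside it were, among others, Sv2c (-1.35) and Apba1 (-0.22) on the lower side and Scn3a (0.18) and Gabbr2 (0.27) on the higher side.

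Only 4 of 24 genes of myelin and lineage had values at both stages, and 2 were lower and 2 higher in iOL NT. Cldn11, the claudin of myelin tight junctions, had 18.2 FPKM in OLP NT and 17.7 FPKM in iOL NT (-0.04). Tns3, a tensin that links integrins to actin and is known to be high in newly formed oligodendrocytes, had 35.5 and 35.6 FPKM (0.00). The fatty acid ligase Acsl4 had 20.3 and 14.3 FPKM (-0.48), and the nuclear protein Trnp1 had 3.62 and 4.38 FPKM (0.22).

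Of 10 genes of the ubiquitin system, 3 were members and their control levels were close. Nedd4, its adaptor Ndfip2 and the deubiquitinase Otud6b had stage differences of -0.06, 0.09 and -0.06. Of 16 genes of the gp130 pathway and of nuclear import, 0 were members, so their control levels could not be compared. At the OLP stage alone, the gp130 receptor gene Il6st had 25.0 FPKM and the importin gene Kpna1 25.1 FPKM in NT. The paper reports that Klf6 regulates this importin at both stages, also by qPCR. Among the deposited iOL values, however, no row stood under the symbol Kpna1.

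**Figure D3:**
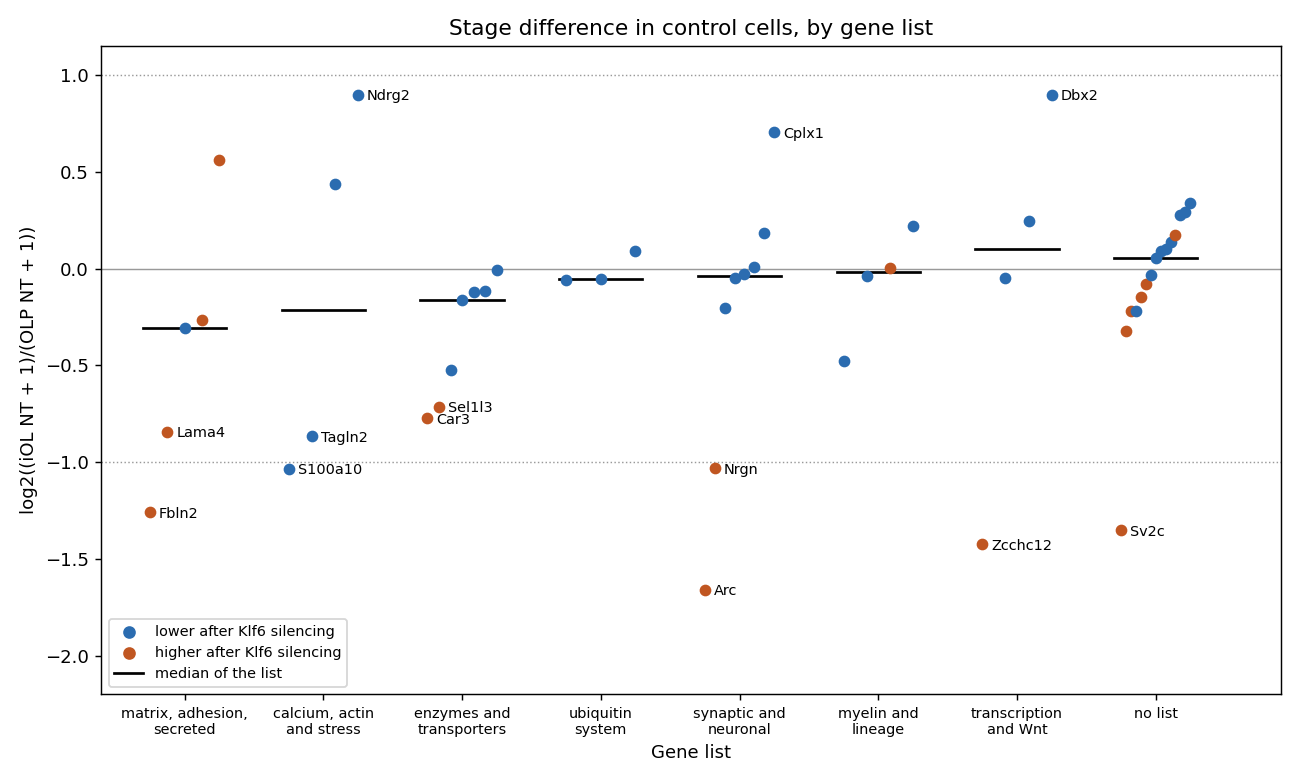
Stage difference of the control cells by gene list. Each point is a gene, blue when lower and orange when higher after Klf6 silencing; black bars are list medians and dotted lines mark differences of 1. The 7 members of the list of enzymes and transporters lie at or below 0, while the 3 genes of the ubiquitin system lie close to 0.

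The remaining 15 members were in no list. Besides Sv2c they ran from -0.32 for AW551984 to 0.34 for Pm20d2. They were Mylk (-0.22), Apba1 (-0.22), Scn7a (-0.15), A730017C20Rik (-0.08) and Celf4 (-0.03) on the lower side. On the higher side were St6galnac3 (0.05), Yeats4 (0.09), Tbc1d22a (0.10), the row shared by Mir1907 and Trps1 (0.13), Scn3a (0.18), the GABA receptor subunit Gabbr2 (0.27) and Gm16515 (0.29). Reads of Mir1907 and Trps1 were not separated in the tables.

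The stage difference was then taken in the silenced cultures, which share no library with the control cultures. Of the 6 genes at least 1 lower in iOL NT, 5 were also at least 1 lower in iOL siKlf6, and S100a10 was at -0.998, just inside the limit of 1. Arc was at -1.63, Nrgn at -1.62, Sv2c at -1.32, Zcchc12 at -1.28 and Fbln2 at -1.19. Car3 joined them at -1.45, so that 6 genes (12.0%) were at least 1 lower. Dbx2 at 1.71 was the 1 gene (2.00%) at least 1 higher. Across the 50 genes the stage difference in silenced and in control cultures had a Pearson r of 0.886 (Spearman rho 0.831). That is a description over genes which were chosen together and share the separate scaling of the tables.

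Control and silenced cultures differed most for genes that silencing lowered. In the 34 genes lower in siKlf6 the median stage difference was -0.02 in NT and 0.36 in siKlf6, and it was larger in siKlf6 for 33 of them, Ndrg2 being the exception (0.90 and 0.41). For these genes a larger stage difference in siKlf6 is, by arithmetic, a smaller fall on silencing in iOL than in OLP. The silencing calls also chose the genes, so the count is not independent of that choice. Klf6 itself was listed for OLP alone, so the depth of its silencing could not be compared between the stages. For 12 of the 34 the sign went from negative in NT to positive in siKlf6, in some cases close to 0, as for Stmn3 (-0.05 and 0.01). Nedd4 was the clearest of these, with 252 and 242 FPKM in NT and 54.9 and 95.0 FPKM in siKlf6, stage differences of -0.06 and 0.78. Tagln2 went from -0.87 to -0.37, with 165 and 127 FPKM in the silenced OLP and iOL cultures. In the 16 genes higher in siKlf6 the medians were -0.52 in NT and -0.63 in siKlf6, and the stage difference was larger in siKlf6 for 6 and smaller for 10. Only Tns3 among them changed sign, from 0.00 to -0.30.

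**Figure D4:**
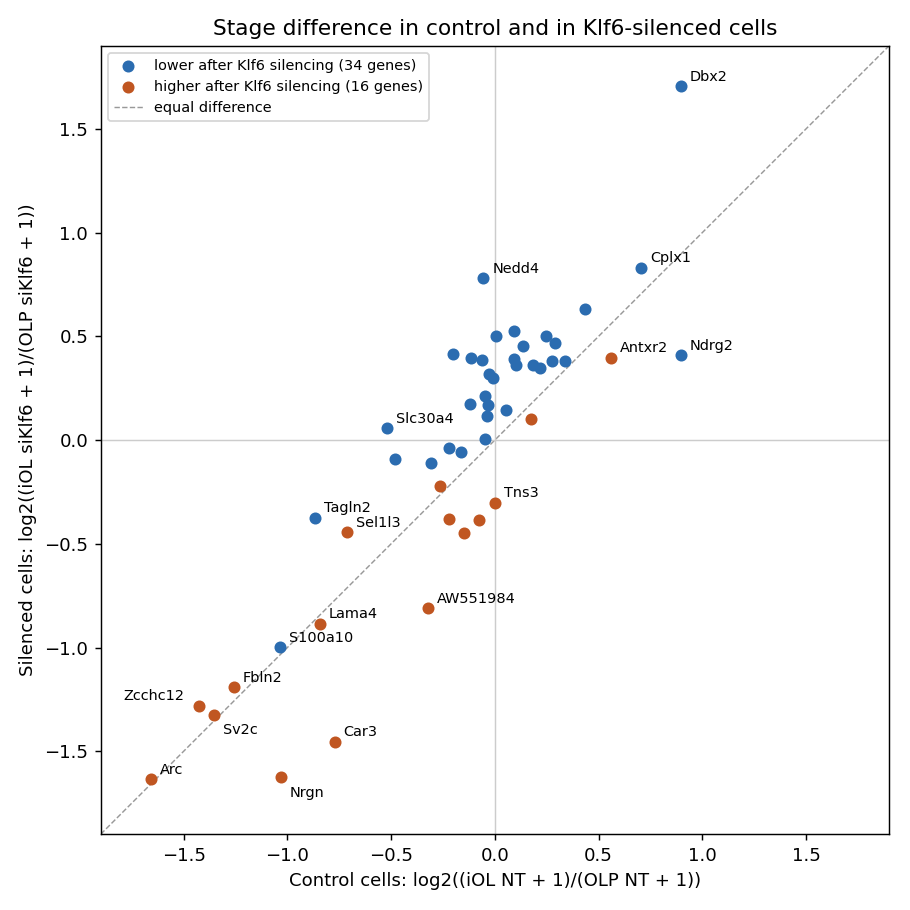
Stage difference in control cells (horizontal axis) and in Klf6-silenced cells (vertical axis), both as log2 of the iOL over the OLP value with 1 FPKM added. Each point is a gene, blue when lower (34) and orange when higher (16) after silencing, and the dashed line marks equal differences. Blue points lie above the line except Ndrg2, and Arc, Zcchc12, Sv2c, Fbln2 and S100a10 lie close to it at the lower left.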

How the data were processed

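RNA from 8 cultures in 4 groups had been sequenced. According to the submitters' processing notes and the methods of the study, bases were called with CASAVA 1.8, trimmed reads were mapped to mm9 with TopHat2, and transcripts were quantified with Cufflinks, CuffNorm and Cuffdiff at default settings. The deposited values are FPKM, which the authors computed for each stage in a separate run and pooled over the 2 cultures of a condition. Each table holds the rows called by the authors after silencing and no others; their fold changes, test statistics, p-values and q-values were not used. Depth per culture is not given in the sources used here, so the precision it gives is unknown.

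Tables were joined by gene symbol, and differences and medians were computed in Python 3.11.15 with pandas 2.3.3 and SciPy 1.17.1, after the code had been tested on simulated data. No test was possible without values per culture. Alternatives were other pseudocounts (0.1 FPKM or none), minimum levels of 1 or 5 FPKM, single-symbol rows with a locus of at least 500 bp, centring on the median, silenced in place of control values, and a limit of 0.5. Gene positions came from GENCODE vM1 for 48 of 50 members, and promoters from RefSeq. The named genes were those at least 1 apart, the 3 highest, and Cldn11 and Tns3, while the rest are given by list. Ndrg2, Dbx2 and the promoters shown were chosen after their values were seen. Members and lists were chosen with earlier results of these data known, so the share of a list that were members is not independent of the data.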

Additional observations from a re-analysis of the deposited data

How the results depend on the processing

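No paired analysis was possible because each condition has a single pooled value, and for the same reason no replicate block was run and no replicate was left out. The 6 genes at least 1 lower in iOL NT stayed negative in the silenced cultures. Centring took away a median of only -0.05, which could not change the sign of these 6. The number of such genes was 6 with 0.1 FPKM added and with single-symbol rows, 9 with no pseudocount, 5 and 2 with at least 1 and 5 FPKM in both controls, 4 after centring and 11 at a limit of 0.5. The number at least 1 higher was 0 throughout, except for 1 in the silenced cultures and 4 at a limit of 0.5. The FPKM minimums left 44 and 29 genes.

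The median over all genes was -0.043 with at least 1 FPKM, 0 after centring and 0.16 in the silenced cultures, where 60% of genes were higher in iOL in place of 38%. The median of the genes lower after silencing was 0.034 after centring and 0.36 in the silenced cultures. The median of the genes higher after silencing depended on low values. It was -0.81 with 0.1 FPKM added, -0.97 with none, -0.81 and -0.77 with at least 1 and 5 FPKM, -0.47 after centring and -0.63 in the silenced cultures. Centring changed the sign of 6 genes, all close to 0.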

Other observations

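For several genes the silenced iOL cultures and the control OLP cultures had close FPKM values, a comparison across the separately normalized tables. Nrgn had 8.97 FPKM in iOL siKlf6 and 8.96 FPKM in OLP NT, Car3 17.8 and 18.3 FPKM, and Zcchc12 36.1 and 39.8 FPKM. Others of the same kind were further apart: Arc at 7.11 and 14.9 FPKM, Fbln2 at 8.45 and 11.1 FPKM and Sv2c at 2.45 and 3.66 FPKM. For S100a10 and Tagln2, which were lower after silencing, the close pair was OLP siKlf6 and iOL NT, with 56.3 and 61.6 FPKM for S100a10 and 165 and 194 FPKM for Tagln2. Each pair holds the middle values of its gene, which follows from the directions in which the gene differed by stage and by silencing. These genes were chosen after their values were seen, and no test between conditions was possible.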
